A study of Homo sapiens with 5 samples.

Results

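This account concerns the genes of the ubiquitin system whose names mark them as conjugating enzymes, ligases, ligase adaptors or deubiquitinases. The members are the genes in the deposited list of transcription start sites (TSSs) whose symbol begins with UBE2, RNF or TRIM and a number, HERC, FBXO, FBXL, FBXW, KLHL, DCAF, USP and a number, or CUL and a number. CUL4B was left out by the rule. A member also had to have values in all 3 libraries with TSS data, and the start with the highest mean promoter density stood for each gene. Of 125 matching names, 122 remained, out of 9767 genes, and 2 names without values in all 3 libraries were not analysed here. No cullin remained, since CUL4B was the only one listed. USP6NL, a GTPase-activating protein gene, and USP12-AS2, a noncoding transcript that starts beside USP12, matched by name alone and encode no deubiquitinase.

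RNA polymerase II (RNAPII) had been mapped by chromatin immunoprecipitation and sequencing (ChIP-seq) with an antibody to RPB1, its largest subunit. The cells were RPE1, a human line from retinal pigment epithelium made immortal with hTERT. All groups shared the same parent, in which Cas9 can be induced and both p53 and the puromycin resistance gene are knocked out, and all were untreated. The groups were WT (3 samples), CFAP20-KO (1 sample, called the single knockout below) and CFAP20/CCNC-dKO (1 sample, the double knockout), where CFAP20 is a cilia- and flagella-associated protein and CCNC is cyclin C of the Mediator kinase module. The labels do not say whether each knockout line is 1 clone. TSS values came from 1 library per genotype (replicate 1), so differences between genotypes are described without a test. The study asks how transcription and replication are arranged and what CFAP20 contributes.

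Ubiquitin is passed from an activating enzyme (E1) to a conjugating enzyme (E2) and then, with a ligase (E3), to a substrate. RING ligases such as the RNF and TRIM proteins bring the E2 to the substrate, HERC proteins carry a HECT domain that takes up ubiquitin itself, and F-box (FBXO, FBXL, FBXW), KLHL and DCAF proteins are substrate adaptors of cullin ligases. USP enzymes remove ubiquitin. In dividing cells the system times mitotic exit, unloads and repairs stalled replication forks and sets the level of many transcription regulators.

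The WT library held 6.61145e+06 equivalent fragments over the TSS windows, that is coverage divided by the height and length of 1 fragment. That of the single knockout held 12.7% and that of the double knockout 17.9% of this number. Per the labels, the RPB1 antibody of the WT samples differed in supplier from that of both knockouts, so in any comparison with WT the genotype and the antibody cannot be told apart. The WT label repeats the catalogue number of the spike-in antibody and may be wrong. Of the fixed marker lists, the mesenchymal genes TGFBI, ITGA5 and LOX passed the density limit described below, and 0 of 3 measured blood genes did. None of the epithelial markers on the list was measured. The only neuronal marker measured, SNAP25, had a promoter density of 1.05 in WT, 0.150 in the single knockout and 0.121 in the double knockout. Its part in the results was not tested.

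Promoter sequences were taken from RefSeq (GRCh38.p14), 250 bases before to 50 bases after a start. A RefSeq start lay within 100 bp of the listed TSS for 66 of the 122 members. Below are 5 of them, chosen after their values were seen: UBE2S, with the highest WT promoter density of all members, FBXL5, with the highest density in both knockouts, TRIM26, which was high in the single knockout, and USP1 and UBE2T, which act on the same DNA crosslink repair substrate and differed in the double knockout. Capitals mark matches, on either strand, to 8 motifs. These are TATAAA of the box bound by TBP, CCAAT of the box bound by NF-Y, GGGCGG of the GC box, CCGGAAG of ETS factors, TGACGTCA of the cyclic AMP response element, TTTGAA of the CHR element, GCGCATGC of NRF1 and AAGATGGCG of YY1.
UBE2S, chr19:55407739-55408038, minus strand: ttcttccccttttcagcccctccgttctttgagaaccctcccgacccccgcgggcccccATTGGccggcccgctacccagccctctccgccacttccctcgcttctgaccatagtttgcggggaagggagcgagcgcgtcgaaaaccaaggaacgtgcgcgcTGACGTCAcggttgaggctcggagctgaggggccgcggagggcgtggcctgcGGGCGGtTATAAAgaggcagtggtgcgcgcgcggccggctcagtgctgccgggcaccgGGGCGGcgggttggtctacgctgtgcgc
FBXL5, chr4:15655308-15655607, minus strand: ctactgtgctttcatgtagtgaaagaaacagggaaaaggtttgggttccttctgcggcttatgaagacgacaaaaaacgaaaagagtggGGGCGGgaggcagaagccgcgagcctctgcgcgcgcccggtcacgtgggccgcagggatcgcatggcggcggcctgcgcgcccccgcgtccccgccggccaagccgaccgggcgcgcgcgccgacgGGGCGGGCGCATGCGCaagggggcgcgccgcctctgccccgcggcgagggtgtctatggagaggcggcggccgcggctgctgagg
TRIM26, chr6:30213357-30213656, minus strand: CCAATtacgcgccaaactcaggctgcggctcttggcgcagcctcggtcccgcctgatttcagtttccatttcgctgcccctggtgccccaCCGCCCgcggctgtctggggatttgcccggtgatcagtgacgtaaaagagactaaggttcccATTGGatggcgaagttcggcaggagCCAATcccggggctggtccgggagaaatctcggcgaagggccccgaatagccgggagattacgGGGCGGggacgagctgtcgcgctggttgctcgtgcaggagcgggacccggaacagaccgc
USP1, chr1:62436145-62436444, plus strand: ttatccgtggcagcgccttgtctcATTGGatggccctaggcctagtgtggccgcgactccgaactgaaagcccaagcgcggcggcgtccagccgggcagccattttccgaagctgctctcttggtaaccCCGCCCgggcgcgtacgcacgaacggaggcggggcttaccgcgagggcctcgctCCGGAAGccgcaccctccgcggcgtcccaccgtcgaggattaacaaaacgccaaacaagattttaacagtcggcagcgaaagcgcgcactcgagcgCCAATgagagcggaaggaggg
UBE2T, chr1:202341887-202342186, minus strand: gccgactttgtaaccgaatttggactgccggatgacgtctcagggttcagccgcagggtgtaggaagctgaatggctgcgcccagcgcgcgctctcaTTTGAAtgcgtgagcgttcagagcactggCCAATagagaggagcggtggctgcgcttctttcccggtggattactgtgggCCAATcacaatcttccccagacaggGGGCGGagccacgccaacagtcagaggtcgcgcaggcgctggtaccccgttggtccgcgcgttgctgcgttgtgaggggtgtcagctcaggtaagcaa

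The UBE2S sequence held TATAAA 29 bases before the RefSeq start and TGACGTCA 88 bases before it. It was 1 of 2 promoters with TGACGTCA and 1 of 3 with TATAAA among the 43 members that had a RefSeq sequence and passed the density limit. The FBXL5 sequence held GCGCATGC in both orientations 29 and 27 bases before the start, the matches overlapping each other and directly following a GC box. UBE2T held CCAAT 124 and 73 bases before the start and TTTGAA, the letters of the CHR element of cell cycle promoters, 153 bases before it. GGGCGG was present in 79.1% of the 43 member promoters, in 65.2% of the 2197 promoters of all genes above the limit and in 45.0% of all 35116 promoters of the table. CCAAT was present in 44.2%, 39.6% and 34.6%, CCGGAAG in 18.6%, 16.8% and 10.3%, TATAAA in 6.98%, 8.38% and 11.5%, and TTTGAA in 9.30%, 12.3% and 15.2% of the same groups. TGACGTCA was present in 4.65%, 3.78% and 1.85%, GCGCATGC in 4.65%, 4.96% and 3.05%, and AAGATGGCG in 11.6% (5 promoters), 2.96% and 1.75%. The 23 member promoters below the limit held GGGCGG in 30.4% and TATAAA in 26.1%. The 1398 promoters of all genes below the limit held them in 32.5% and 18.0%. Median GC content of members was 64.3% above and 56.7% below the limit, and the observed to expected ratio of CpG was 0.843 and 0.371. All genes had a GC content of 63.7% and 52.7% and a CpG ratio of 0.809 and 0.305, so the contrast is not particular to members. These letter matches describe the windows and say nothing of binding.

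CFAP20 and CCNC themselves are not among the genes analysed here, so the knockouts could not be checked at their targets. Coordinates are TSS positions in hg38, and 3 values in a row stand in the order WT, single knockout, double knockout. Promoter density was the mean spike-in normalized coverage from -200 to 500 bp around the listed TSS. The density limit was a mean over the 3 libraries of 0.411, the median over all genes. It was passed by 80 of 122 members (65.6%), against 4891 of 9767 genes (50.1%). The passing members had a median promoter density of 1.61 in WT, 1.74 in the single knockout and 1.10 in the double knockout. All passing genes had 1.07, 1.10 and 0.828. A gene that is high in 1 library alone can pass this limit. ChIP-seq carries no strand, and 13 of the 80 passing members had the start of a gene on the opposite strand within 1 kb, whose RNAPII cannot be told apart from theirs. Just inside it lay USP6NL (0.414), UBE2QL1 (0.478) and KLHL15 (0.485), and just outside it RNF222 (0.404), TRIM42 (0.403) and UBE2U (0.402).

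E2 genes were occupied almost throughout, with 10 of 11 members above the limit and a median WT promoter density of 1.70 among the 10. UBE2S, the E2 that extends ubiquitin chains for the anaphase-promoting complex (chromosome 19, TSS at 55407778, hg38), had the highest WT promoter density of all members at 8.18, against 4.05 in the single knockout and 3.22 in the double knockout. UBE2J1, an E2 of endoplasmic reticulum (ER)-associated degradation (chromosome 6, 89352849), had 4.28, 4.41 and 2.94 in the same order. UBE2V2, a catalytically inactive partner of E2 enzymes, had 3.09, 3.14 and 2.61, and UBE2D2, an E2 that serves many RING ligases, had 2.83, 2.41 and 2.67. The 3 libraries lay within 1.5-fold of each other for both genes. UBE2A and UBE2B, the E2 pair that ubiquitinates PCNA with RAD18, had WT densities of 1.36 and 1.79. UBE2U was the only E2 below the limit.

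Among RING ligases the RNF group had 16 of 22 members above the limit (median WT density 1.64) and the TRIM group 15 of 37 (1.35). RNF103, an ER ligase (chromosome 2, 86623856), had 3.58 in WT, 3.20 in the single knockout and 2.03 in the double knockout. RNF19B, a RING-between-RING ligase, had 3.45, 2.82 and 2.76. TRIM59 led the TRIM genes with 2.47, 2.42 and 2.49 (chromosome 3, 160449830), and the 3 values lay close together. Of the HERC ligases, interferon-induced HERC6 passed the limit with 1.42, 0.851 and 0.649. HERC2, a giant ligase with near-identical partial copies in the genome, had 0.206, 0.0671 and 0.258.

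Adaptor genes of cullin ligases were also well occupied: 9 of 10 FBXO, 3 of 4 FBXL, 2 of 2 FBXW and 9 of 11 KLHL members passed, but 2 of 6 DCAF members. FBXO32, which encodes the muscle atrophy adaptor atrogin-1 (chromosome 8, 123541207), had 4.89 in WT, 4.61 in the single knockout and 1.58 in the double knockout. FBXL5, the iron-sensing adaptor (chromosome 4, 15655413), had 3.91, 5.27 and 3.66, and its knockout values were the highest of all members in those libraries. FBXL17, an adaptor of BTB protein quality control (chromosome 5, 108382099), had 3.53, 4.00 and 2.40. FBXW2 had 3.42, 3.02 and 1.65, KLHL8 had 2.88, 2.25 and 0.971, and DCAF10 had 2.21, 2.63 and 1.65. Among these adaptors, the double knockout was the lowest library for all 6 genes named here. The median of all passing genes was also lowest in that library, at 1.07, 1.10 and 0.828. The share of all genes that were lowest there was not counted.

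Deubiquitinase genes had 13 of 17 members above the limit, USP6NL and USP12-AS2 among them, with a median WT density of 1.62. USP47, a deubiquitinase of DNA polymerase beta (chromosome 11, 11841423), had 3.48 in WT, 3.61 in the single knockout and 2.37 in the double knockout. USP1, which removes ubiquitin from FANCD2 and PCNA (chromosome 1, 62436304), had 2.65, 2.15 and 0.978.

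**Figure D1:**
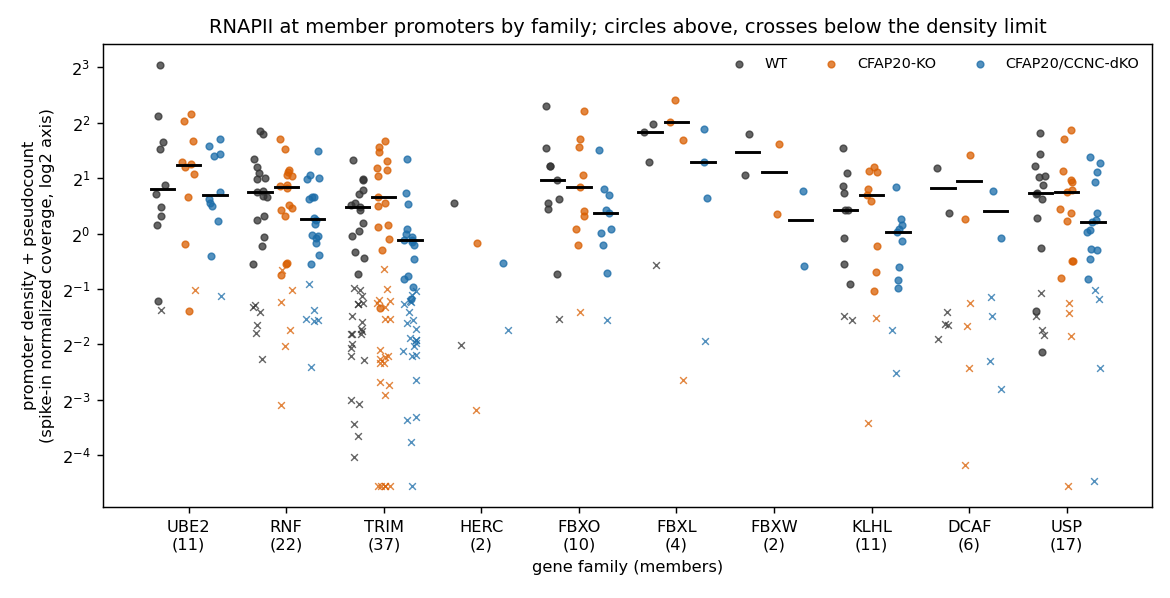
Promoter density plus the pseudocount of 0.0424 (log2 axis) of every member by family in the WT, single-knockout and double-knockout libraries; each symbol is 1 gene, circles lie above and crosses below the density limit, and black lines are medians of the circles where a family has more than 1. The TRIM family has the most genes below the limit, 22 of 37, and UBE2S is the highest point at 8.18 in WT.

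The 42 members below the limit had a median promoter density of 0.276 in WT, 0.196 in the single knockout and 0.257 in the double knockout, below their median flank densities of 0.320, 0.279 and 0.319 (the flank spans 2000 to 4500 bp upstream and downstream). A fixed list of genes known for expression restricted to certain tissues or stages had 30 measured members, of which 6 passed. Its median promoter density was 0.314, 0.334 and 0.308 in the order WT, the single knockout and the double knockout. The muscle ligase TRIM63 had 0.312, 0.377 and 0.212, and the ligase TRIM71 of embryonic cells had 0.371, 0.299 and 0.421. The passing exceptions included RNF182, a brain-enriched ligase, with 1.53, 2.16 and 1.49. The clustered copies of TRIM43, TRIM48, TRIM49, TRIM51, TRIM64 and TRIM77 (12 members) had WT densities of 0.0190 to 0.465. 0 of the 12 passed, and their values are uncertain because such near-identical copies share reads. The highest WT value below the limit was that of FBXL22, at 0.636 beside 0.119 and 0.217 in the knockouts.

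The mean profile of the 80 passing members peaked in the 50-bp bin starting at 50 bp in WT (2.61) and the single knockout (2.25), and at 100 bp in the double knockout (1.54). All passing genes peaked at the same positions with 1.85, 1.68 and 1.19. Isolated fragments covered about 148 bp in WT, 299 bp in the single knockout and 319 bp in the double knockout. Longer fragments flatten a profile, so peak heights and positions are not on the same footing between libraries. Upstream of the start, in the bin at -100 bp, the members' mean was 1.83, 1.86 and 1.34. Density over the gene body, taken between 2000 and 5000 bp in genes of at least 5000 bp, had a member median of 0.443 in WT, 0.507 in the single knockout and 0.493 in the double knockout, against 0.421, 0.447 and 0.436 over all genes. Members thus stood further above all genes at the promoter than in the body.

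**Figure D2:**
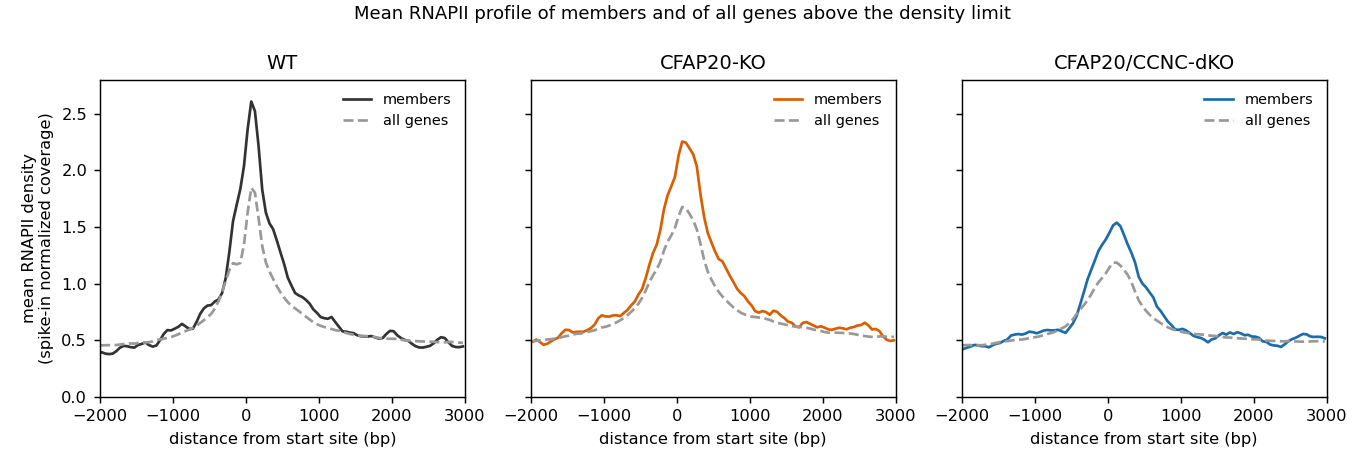
Mean RNAPII density (spike-in normalized coverage, 50-bp bins) against distance from the start site for the 80 passing members (solid) and all 4891 passing genes (dashed), 1 panel per library. The member peak is 2.61 in WT, 2.25 in the single knockout and 1.54 in the double knockout, and lies above the peak of all genes in each panel. Fragments covered about 148, 299 and 319 bp in the same order, so peaks compare within a panel rather than between panels.

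The median log2 ratio of promoter to gene body density, which hardly depends on the scale between libraries, was 1.78 in WT, 1.70 in the single knockout and 1.13 in the double knockout over 79 members. Over all 4395 genes of that length it was 1.26, 1.27 and 0.93. Such log2 values were computed after adding a pseudocount of 0.0424 to each density, and so understate differences of low genes. The highest WT ratios were those of UBE2J1 (3.32), RNF19B (3.05), RNF103 (2.98), UBE2S (2.90) and FBXL5 (2.87). The ratio of UBE2J1 was 2.27 in the single knockout and 2.07 in the double knockout. The lowest WT ratios were those of KLHL35 (-0.42), USP6NL (-0.38), KLHL15 (-0.06), UBE2QL1 (0.41) and the interferon-induced TRIM22 (0.66). KLHL35 carried more RNAPII in its body (0.868) than at its promoter (0.638) in WT. Gene body density in WT was highest at FBXO32 (1.59), UBE2S (1.06), TRIM59 (0.881), KLHL35 (0.868) and the antiviral ligase TRIM56 (0.798).

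The authors' deposited table gives a WT nascent transcription value from bromouridine labelling (BrU-seq) for 79 of the 80 passing members, with a median of 1.54 on a scale that is not given. The highest of them was UBE2S at 104, followed by KLHL9 at 20.5 and TRIM59 at 14.1. Across these 79 members, Spearman's rho with WT promoter density was 0.286 and with WT gene body density 0.424. Over 4343 genes it was 0.584 and 0.565. These are descriptions across genes of 1 ChIP-seq library.

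In the single knockout the members as a group stood close to WT, with a median log2 promoter ratio of 0.04 beside 0.13 over all genes. Counting relative to the median ratio of all genes, 7 of 80 members were at least 1.5-fold higher and 10 were at least 1.5-fold lower. Of all 4891 genes, 15.8% were higher and 16.6% lower by the same rule, so neither count stood above the background. Without centring, 12 members were higher (background 22.3%) and 6 lower (background 12.4%). Members held a median of 171 equivalent fragments in the promoter window in WT, 22.5 in the single knockout and 21.9 in the double knockout, and all genes 114, 14.3 and 16.5, so shares past 1.5-fold are not on the same footing of counting error. Ratios of single genes below are given uncentred with 95% Clopper-Pearson intervals from these fragments, which cover counting error only. The median ratio of all genes was 1.10, and 8 of the 17 members counted had an interval that lay wholly beyond it. Intervals were not counted over all genes, in this or the later comparisons. Members hold more fragments and so have narrower intervals, and such counts cannot be read as particular to them.

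RNF4, which encodes a SUMO-targeted ubiquitin ligase active at DNA breaks and stalled forks (chromosome 4, 2468937), had a promoter density of 2.10 in WT, 0.642 in the single knockout and 1.54 in the double knockout. The single knockout alone was low, and its value of 8.32 fragments was 0.306 times WT (0.133 to 0.606). Its gene body density was 0.507, 0.686 and 0.580, with the single knockout the highest of the 3. UBE2S stood at 0.496 times WT in the single knockout (0.368 to 0.656). It lies in a stretch of chromosome 19 where the flanks of the starts within 5 Mb were at a median of 0.611 times WT in the single knockout and 0.586 times in the double knockout, and the part of this stretch in its value was not tested. TRIM58, an erythroid ligase, had 0.692 in WT and 0.351 in the single knockout, a ratio of 0.507 whose interval (0.149 to 1.28) includes the median ratio.

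The adaptor FBXO33 had 1.41 in WT, 0.825 in the single knockout and 0.822 in the double knockout. Its single-knockout ratio was 0.584 (0.282 to 1.08). Just upstream, from -1000 to -200 bp, its density was 1.32 in WT, 3.09 in the single knockout and 0.890 in the double knockout. A gene on the opposite strand starts within 1 kb, so the low window value does not show less RNAPII around this start. HERC6, with the values given above, had a ratio of 0.598 (0.292 to 1.10), an interval that just reaches the median ratio. The other genes counted as lower were FBXO28, FBXW11, RNF41, UBE2T and USP36.

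Higher in the single knockout were the RING ligases TRIM26 and TRIM45. TRIM26, encoded in the major histocompatibility region (chromosome 6, 30213428), had 1.43 in WT, 3.13 in the single knockout and 1.02 in the double knockout. It was 2.19 times WT in the single knockout (1.51 to 3.11). TRIM45 (chromosome 1, 117121729) had 1.38, 2.89 and 0.910, and was 2.09 times WT (1.42 to 3.01). Both were high in the single knockout alone, and both had ordinary flanks nearby, at 1.02 and 0.968 times WT within 5 Mb. Their gene body density was 0.456 and 0.408 in WT and 0.363 and 0.456 in the single knockout.

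RNF219, now named OBI1, a ligase of the origin recognition complex (chromosome 13, 78659180), had 0.919 in WT, 1.72 in the single knockout and 0.718 in the double knockout. Its single-knockout ratio was 1.87 (1.12 to 2.99), and its gene body was also higher, at 0.521 against 0.301. USP6NL had 0.185, 0.531 and 0.527 and USP51, a deubiquitinase of histone H2A, had 0.335, 0.665 and 0.682. The WT densities of both lay below the limit, so both passed it only through their knockout values. USP6NL lies on chromosome 10 where nearby flanks were at 1.35 times WT in the double knockout. The E2 UBE2A (1.36 in WT, 2.34 in the single knockout) and FBXO43, a meiotic inhibitor of the anaphase-promoting complex, were the other members counted as higher.

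In the gene body, 8 of 79 members were at least 1.5-fold higher in the single knockout (background 7.3%) and 3 lower (background 12.8%). The median log2 body ratio was 0.15, against 0.08 over all genes. The higher bodies were those of FBXO17, FBXO4, FBXO43, RNF152, RNF219, UBE2J1, USP11 and USP6NL, and the lower ones those of RNF122, UBE2D1 and USP40. FBXO17 lies on chromosome 19 where nearby flanks were at 1.33 times WT in the single knockout and 1.37 times in the double knockout. The part of this stretch in its body value was not tested. UBE2J1 had body densities of 0.391 in WT, 0.882 in the single knockout and 0.670 in the double knockout beside promoter densities of 4.28, 4.41 and 2.94.

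**Figure D3:**
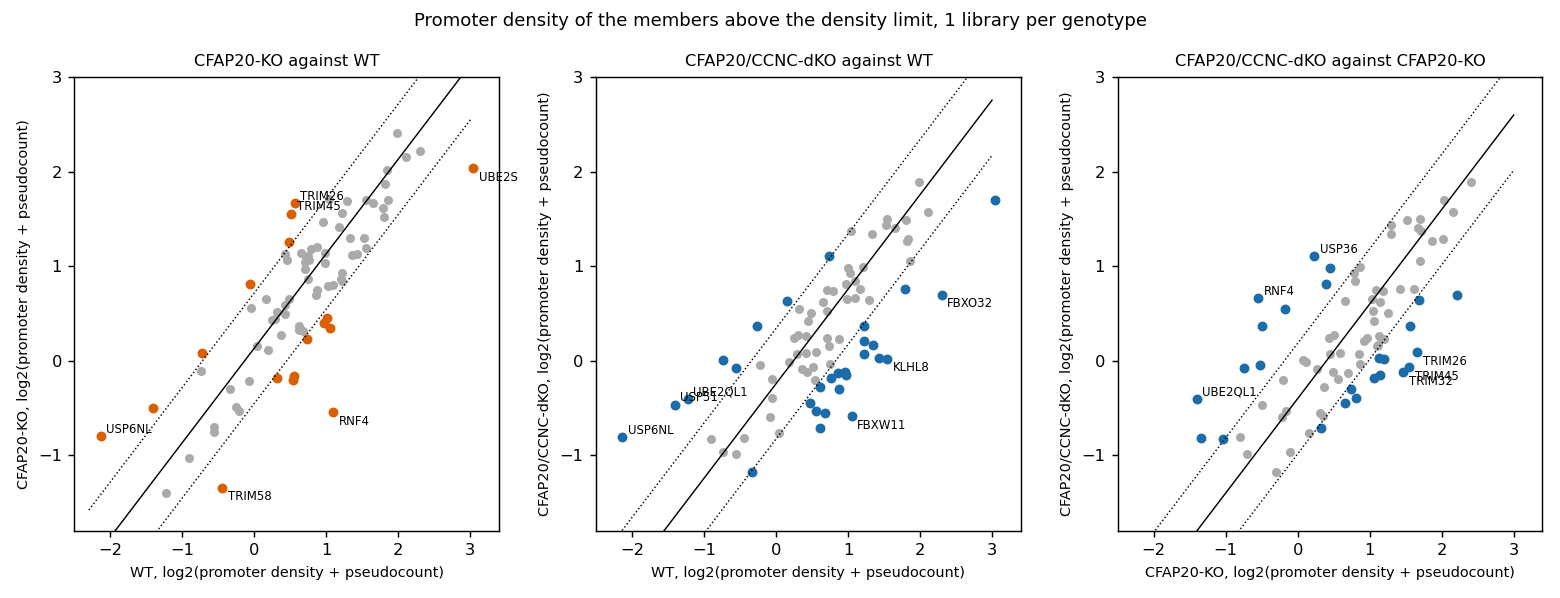
Log2 promoter density plus pseudocount of the 80 passing members, 1 library against another in each panel; each point is a gene, the solid line is the median ratio of all genes, dotted lines mark 1.5-fold from it, and coloured points lie beyond them. 17 members lie beyond the lines for the single knockout against WT, 29 for the double knockout against WT and 25 for the double knockout against the single knockout, and the labels name the 3 highest and 3 lowest of each.

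In the double knockout most members, like most genes, had a lower promoter density than in WT. Of the 80 members, 15 had a log2 ratio above 0, and the median was -0.39, beside -0.24 over all genes. The share of all genes above 0 was not counted, and the third quartile was -0.04 in members and 0.19 over all genes. Relative to the median of all genes, 21 members were at least 1.5-fold lower (background 16.7%) and 8 at least 1.5-fold higher (background 18.9%). The members' share lower was 26.2%. Without centring, 28 were lower (background 28.1%) and 5 higher (background 11.4%). With a promoter window from -500 to 1000 bp, 13 were lower (background 11.3%) and 3 higher (background 13.5%). This comparison shares its WT library with the previous one. Of the 21, 18 had an interval wholly below the median ratio of 0.844, a share that was not counted over all genes.

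The 3 lowest ratios were those of cullin adaptor genes. FBXW11, the beta-TrCP2 adaptor that recognises phosphorylated substrates such as beta-catenin (chromosome 5, 172006874), had 2.03 in WT, 1.23 in the single knockout and 0.622 in the double knockout, or 0.306 times WT in the last (0.158 to 0.541). FBXO32, with the densities given above, stood at 0.324 times (0.218 to 0.464), and its gene body was also lower, at 1.59, 1.28 and 0.640. KLHL8 stood at 0.337 times (0.201 to 0.534). In all, 8 of 25 passing F-box, KLHL and DCAF members were lower, beside 16.7% of all genes, namely FBXO4, FBXO7, FBXO21, FBXO32, FBXW2, FBXW11, KLHL8 and KLHL20. Of the FBXL genes 0 of 3, and of the DCAF genes 0 of 2, were counted in either direction.

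USP1 stood at 0.369 times WT in the double knockout (0.220 to 0.584), and its gene body was at 0.548 in WT, 0.864 in the single knockout and 0.515 in the double knockout. UBE2T, the E2 of the Fanconi anaemia core complex (chromosome 1, 202341981), had 1.20, 0.838 and 1.42, so the double knockout was its highest library. UBE2S stood at 0.394 times WT (0.301 to 0.507), again in the stretch of chromosome 19 with low flanks. TRIM24, a histone-reading coregulator of nuclear receptors, also lies in such a stretch, on chromosome 7, with nearby flanks at 0.571 times WT in the single knockout and 0.497 times in the double knockout. Its promoter density was 1.93, 2.16 and 0.858. These were the only 2 passing members with nearby flanks under 0.75 times WT, and the other 19 lower members lay outside such stretches.

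Of 5 measured members on a fixed list of interferon-induced genes, HERC6, TRIM21, which binds antibody in the cytosol, and TRIM56 were at least 1.5-fold lower in the double knockout, and the retroviral restriction factor TRIM5 and TRIM22 were within the limits. TRIM21 had 0.748, 0.771 and 0.399, and TRIM56 had 1.35, 1.53 and 0.688. The list's median log2 ratio was -0.84, beside -0.24 over all genes, of which 16.7% were lower. Of 6 measured members on a list of cell cycle genes, UBE2S, USP1 and FBXO7 were lower and UBE2T, UBE2D1 and USP13 were within the limits, with a list median of -0.41. Lists this short can only be described. USP13 had 2.01, 3.23 and 2.55.

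The members with the highest ratios in the double knockout started from low WT values. USP6NL was at 2.85 times WT (1.21 to 6.33), USP51 at 2.03 times (1.00 to 3.90) and UBE2QL1, an E2-like gene with 0.385 in WT, 0.335 in the single knockout and 0.712 in the double knockout, at 1.85 times (0.934 to 3.45). FBXO43 had 0.559, 1.01 and 0.960 and USP40 had 0.792, 0.668 and 1.24. The WT density was below the density limit for the first 3 of these 5 genes, which passed it only through knockout values. Since the limit is on the mean of the libraries, their high ratios at low WT density follow in part from the filter. The part of the raised flanks near USP6NL in its ratio was not tested. The E2 gene UBE2L3, which serves HECT and RING-between-RING ligases, had 1.07, 1.53 and 1.504.

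In the gene body 7 of 79 members were at least 1.5-fold higher (background 5.05%) and 6 lower (background 9.87%) in the double knockout than in WT, and the median log2 ratio was 0.15 beside 0.04. FBXO32, FBXW2 and UBE2S were lower at both promoter and body. USP10, a cytosolic p53 deubiquitinase, had 1.78, 1.63 and 0.770 at the promoter and 0.434, 0.654 and 0.745 in the body, so that promoter and body had opposite orders. FBXO21 showed the same order, with 1.49, 1.21 and 0.569 at the promoter and 0.440, 0.598 and 0.629 in the body.

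The double knockout, which adds the loss of CCNC, was also set against the single knockout. They share the antibody label and, as knockout libraries, the low depth. Chromatin input differed, at 28 µg in the single and 22 µg in the double knockout, and each is 1 library. The loss of CCNC therefore cannot be told apart from other differences between the lines or libraries. Both libraries also serve in the comparisons above. The median log2 promoter ratio of members was -0.52, beside -0.40 over all genes. Relative to the latter, 11 members were at least 1.5-fold higher (background 20.8%) and 14 lower (background 17.7%). Of these, 5 of the 11 and 6 of the 14 had an interval wholly beyond the median ratio of 0.757, again without a count over all genes. Without centring, 6 members were higher (background 10.7%) and 38 lower (background 38.5%).

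RING ligases of the TRIM group were lowest: TRIM45 at 0.315 times the single knockout (0.169 to 0.565), TRIM32 at 0.323 times (0.171 to 0.588) and TRIM26 at 0.327 times (0.182 to 0.570). TRIM32, a muscle disease ligase (chromosome 9, 116687302), had 1.90 in WT, 2.72 in the single knockout and 0.877 in the double knockout. In these genes the single knockout was the highest and the double knockout the lowest library. FBXO32 followed at 0.343 times (0.215 to 0.537), and TRIM24 stood at 0.397 times (0.204 to 0.749). In all, 5 of 15 TRIM members were lower and 1 was higher, with a median log2 ratio of -0.86. Of 16 RNF members, 4 were higher and 2 lower, with a median of -0.30. Over all genes 17.7% were lower and 20.8% higher, with a median of -0.40, and the difference between the families was not tested.

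RNF4 had the highest ratio, 2.40 (1.09 to 5.93), which is the reverse of its low value in the single knockout. UBE2QL1 was at 2.12 times (0.690 to 8.30), USP36, a nucleolar deubiquitinase with 1.62 in WT, 1.13 in the single knockout and 2.11 in the double knockout, at 1.86 times (1.01 to 3.64), USP40 at 1.86 times (0.831 to 4.61) and UBE2T at 1.70 times (0.818 to 3.79). Of these 5, all but UBE2QL1 had an interval wholly above the median ratio of 0.757, and only RNF4 and USP36 had one above 1. Bodies were counted as higher in 10 of 79 members (background 13.2%) and as lower in 9 (background 11.8%).

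**Figure D4:**
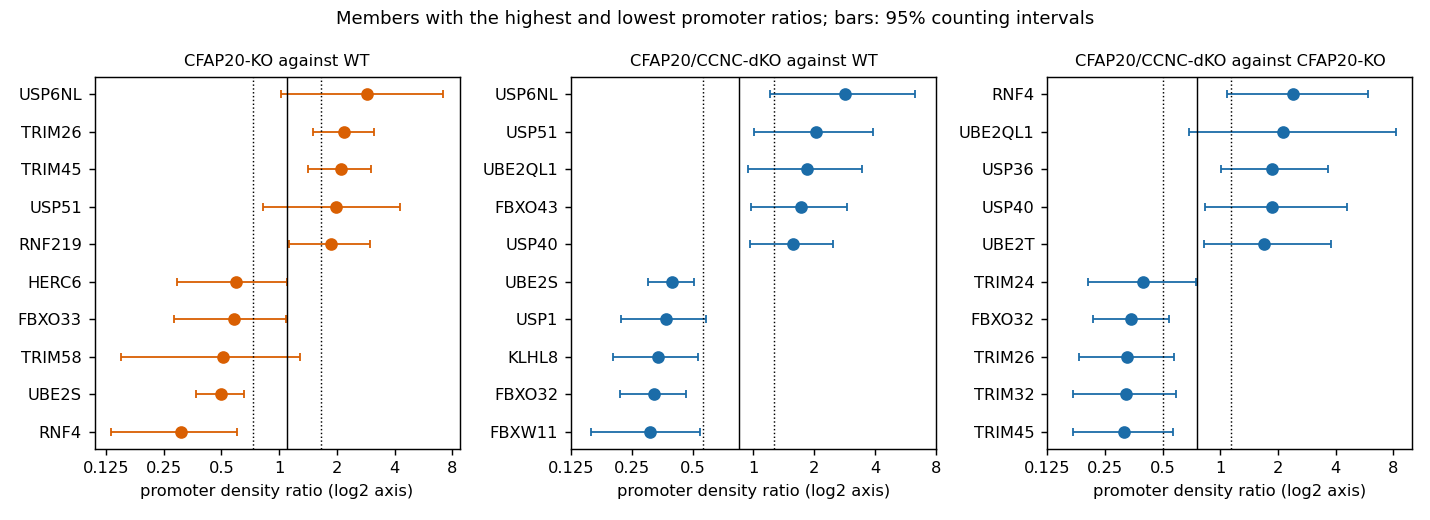
Promoter density ratios (log2 axis) of the 5 members with the highest and the 5 with the lowest ratio in each comparison; points are ratios of 1 library to another, bars are 95% counting intervals, the solid line is the median ratio of all genes and dotted lines mark 1.5-fold from it. RNF4 is lowest in the single knockout against WT at 0.306 and highest in the double knockout against the single knockout at 2.40.

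Replicates existed only for WT, in windows reaching 100 kb to each side of origins of replication, mapped from Okazaki fragments. Of the passing members, 17 of 80 (21.2%) had their TSS within 95 kb of an origin centre, as had 1211 of 4891 genes (24.8%). The origin lay upstream of the start for 12 of the 17 and downstream for 5 (29.4%), beside 31.5% downstream among the 1211 genes. Of the 17, 11 were within 20 kb, a share that was not counted over all genes. Since the scale of these files was not given, promoter density was divided by flank density within each library. The median log2 ratio of the 17 members was 1.87, 1.58 and 2.23 in WT replicates 1, 2 and 3 (mean 1.89 ± 0.321, SD, n = 3). From the TSS data it was 1.91 in WT, 1.55 in the single knockout and 1.83 in the double knockout. The double-knockout value lay inside the range of the WT libraries, and the single-knockout value lay just below the lowest of them, by less than their SD. With the gene body in place of the flank, the 17 members had 1.79, 1.53 and 2.01 in the WT replicates (mean 1.78 ± 0.238, SD, n = 3), against 1.45 in the single and 1.41 in the double knockout, both below every WT library by less than the SD. The 1211 genes had promoter to flank medians of 1.55, 1.111 and 1.74 in the WT replicates, 1.44 in the single knockout and 1.03 in the double knockout, the last below every WT library. Bins of 200 bp in the WT origin data against 10 bp in the TSS data limit this comparison.

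By the counts below, WT libraries differed from each other at single promoters about as often as the genotypes did. The WT pairs rest on bins of 200 bp and the genotype pairs on bins of 10 bp. The fragment depth of WT replicates 2 and 3 was not estimated. The part of counting error in the differences and SDs between WT libraries is therefore not known. Between WT replicates 1 and 2, 5 of the 17 members were at least 1.5-fold apart (background 31.0% of 1211 genes), between 1 and 3 it was 7 (background 34.2%) and between 2 and 3 it was 5 (background 45.1%). Between the single knockout and WT it was 8 (background 33.7%), between the double knockout and WT 4 (background 32.9%) and between the knockouts 8 (background 43.6%).

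RNF4 was among the 17, with log2 promoter to flank ratios of 1.75, 1.58 and 2.39 in the WT replicates (mean 1.91 ± 0.428, SD, n = 3). Its single-knockout value was -0.04 and its double-knockout value 1.5, so that the single-knockout value lay far below all 3 WT libraries and the double knockout value just below them. USP1 (origin centre 12302 bp upstream) had 2.20, 1.26 and 2.04 in WT, 1.53 in the single knockout and 1.07 in the double knockout, the last below the WT range by less than the WT SD of 0.502. FBXW11 (origin centre 4628 bp upstream) had 2.23, 1.06 and 1.61 in WT, 1.29 in the single knockout and 0.36 in the double knockout, a gap to the lowest WT library that is larger than the WT SD of 0.588.

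USP47 varied least between the WT libraries, with 3.03, 2.87 and 2.97 in WT, 2.99 in the single knockout and 2.29 in the double knockout, the last below all 3 WT libraries by more than their SD of 0.0810. FBXL17 had 2.36, 1.96 and 1.82 in WT, 2.68 in the single knockout and 2.28 in the double knockout. FBXW2 had 2.73, 1.83 and 3.38 in WT, 2.47 in the single knockout and 1.89 in the double knockout, inside the WT range in both. TRIM59 had 1.90, 1.35 and 1.61 in WT, 1.77 in the single knockout and 2.17 in the double knockout. KLHL9, an adaptor needed for mitosis, had 2.15, 2.23 and 3.52 in WT, 1.55 in the single knockout and 1.90 in the double knockout. Of the 17 members, 11 had a single-knockout value inside the range of the WT libraries and 4 (RNF4, KLHL9, USP25, USP36) had one below it. For 8 members the double-knockout value lay below the WT range. The same counts were not made over the 1211 genes, whose double-knockout median of 1.03 itself lay below every WT library. They therefore cannot be read as particular to the members. USP25, which had 2.07, 2.14 and 3.07 in WT, stood at 1.27 in the single knockout. TRIM16L had 1.87, 1.39 and 2.30 in WT and 0.47 in the double knockout, and TRIM69 had values between 1.16 and 1.63 in WT and 0.68 in the double knockout, so both lay below all their WT libraries by more than the WT SD.

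**Figure D5:**
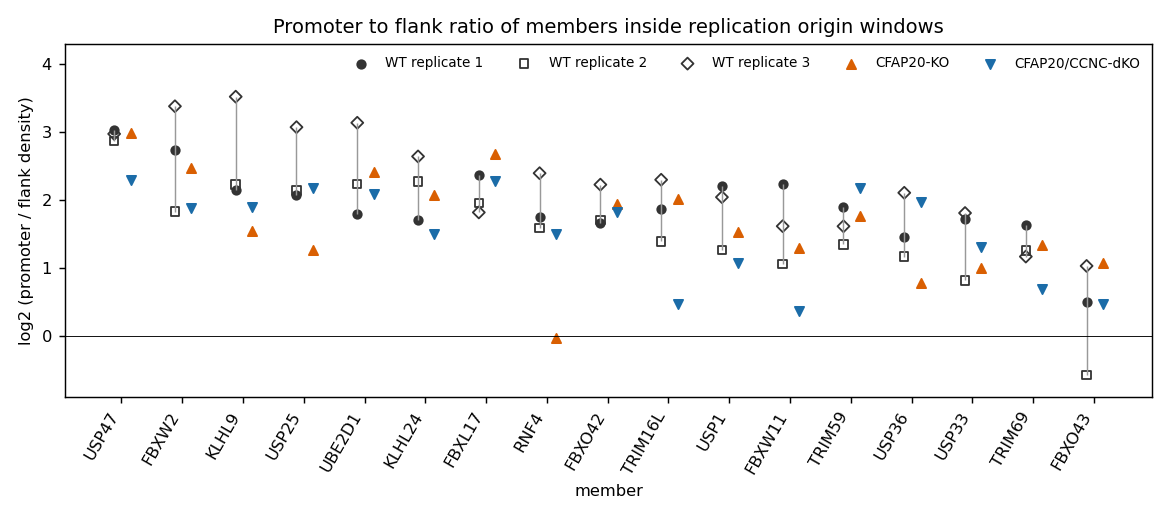
Log2 ratio of promoter to flank density of the 17 members inside origin windows, ordered by their WT mean; black symbols joined by a line are the 3 WT libraries, orange and blue triangles the single-knockout and double-knockout libraries from the TSS data. The single knockout lies below the lowest WT library by more than the WT SD for RNF4 (-0.04) and USP25 (1.27), and the double knockout for USP47 (2.29), FBXW11 (0.36), TRIM69 (0.68) and TRIM16L (0.47); FBXL17 in the single knockout (2.68) lies above its highest WT library by more than the SD.

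Genes of the pathway that the naming rule does not reach were taken from fixed lists, and every measured gene of them passed the density limit. Beside them, 16.6% of all genes were lower and 15.8% higher in the single knockout, and 16.7% lower and 18.9% higher in the double knockout. Of 5 E1 and ubiquitin-like genes, 1 was at least 1.5-fold lower in the single knockout and 2 in the double knockout against WT, and 0 were higher in either. Of 9 cullin ligase partners, 2 were lower and 0 higher in the single knockout, and 1 was lower and 1 higher in the double knockout. Of 8 ligases of HECT and other types, 3 were lower and 1 higher in the single knockout, and 3 were lower and 0 higher in the double knockout. Of 3 further deubiquitinases, 0 were counted in either knockout, and of 10 proteasome genes 2 were lower in the single knockout, and 1 was lower and 1 higher in the double knockout. The median log2 ratio of these lists in the double knockout ran from -0.77 for E1 and ubiquitin-like genes to -0.32 for cullin partners, beside -0.24 over all genes.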

How the data were processed

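The authors deposited RNAPII occupancy as a coverage signal in bins: 10 bp around TSSs within 5 kb, spike-in normalized per the file names, and 200 bp within 100 kb of origins, with a normalization not given in the sources used here. Drosophila chromatin was added at 40 ng to 28 µg (WT, CFAP20-KO) or 32.6 ng to 22 µg (CFAP20/CCNC-dKO), per the labels' protocols. The submitters' processing notes name hg38, the aligners BWA 0.7.17 and STAR 2.7.7a, HOMER 4.8.2, SAMtools 1.11, R 4.0.5, Trim Galore 0.6.5 and FastQC 0.11.9; which made which file is not given in the sources used here. The authors' deposited BrU-seq score has no stated scale. Another 2 per-sample columns were left out.

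Python 3.11.15 with numpy 2.4.6, pandas 2.3.3 and scipy 1.17.1 computed window means. Signal was in whole multiples of 1 step (within 0.02 steps), 0.0444, 0.181 and 0.110 in WT, CFAP20-KO and CFAP20/CCNC-dKO, and isolated fragments covered about 148, 299 and 319 bp, which gave equivalent fragments. The pseudocount was 10% of the median promoter density. The scripts were tested on simulated data. Of 122 members, 118 had a GENCODE 44 start of the same gene within 1 kb. Nearby flanks used the starts within 5 Mb on the same chromosome, at least 10.

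Members and lists were chosen with earlier results of these data known. Named genes were the 5 highest and 5 lowest promoter ratios per comparison, the 6 highest WT promoters, the 5 highest and 5 lowest promoter to body ratios, the 5 highest bodies, up to 8 members in origin windows and the highest of each family. Other genes, the TRIM copy group, the printed promoters and the flank limits of 0.75 and 1.25 were chosen after values were seen. Replicates were labelled samples, and whether they came from separate cultures is not given.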

Additional observations from a re-analysis of the deposited data

How the results depend on the processing

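No test was possible, so these are values without a call. No paired analysis was possible because the knockouts have only replicate 1 and share fewer than 2 replicate numbers with WT. Of 90 values under alternatives, 69 stayed within the spread or within 1.5 times a count, 20 moved and 1 reversed. The median log2 promoter ratio of CFAP20-KO against WT turned to -0.063 when each ratio was divided by that of the flanks within 5 Mb (all genes 0.11). The cause was not tested. Without the density filter, which adds the members near background, the counts were out of 122. For CFAP20-KO against WT, 18 were higher (all genes 19.5%) and 19 lower (all genes 24.6%). For CFAP20/CCNC-dKO against CFAP20-KO, 29 were higher (all genes 27.8%) and 32 lower (all genes 24.3%). For CFAP20/CCNC-dKO against WT, 15 were higher (all genes 19.6%). Without centring, 12 were higher (all genes 22.3%) and 6 lower (all genes 12.4%) for CFAP20-KO against WT. For CFAP20/CCNC-dKO against CFAP20-KO, 6 were higher (all genes 10.7%) and 38 lower (all genes 38.5%). For CFAP20/CCNC-dKO against WT, 5 were higher (all genes 11.4%). With the promoter window from -500 to 1000 bp, 3 were higher (all genes 13.5%) and 13 lower (all genes 11.3%) for CFAP20/CCNC-dKO against WT. Promoter over gene body, as a median log2 ratio for WT, CFAP20-KO and CFAP20/CCNC-dKO, was 1.37, 1.29 and 0.83 with this window and 1.37, 1.21 and 0.83 without the filter. With the pseudocount raised to 50% of that median density it was 1.48 in WT and 1.44 in CFAP20-KO. Leaving out each WT replicate in turn moved the mean log2 promoter to flank ratio at origins between 1.73 and 2.05. The knockout depth, with a median of 22.5 and 21.9 fragments per member promoter, limits single-gene ratios.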

Other observations

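Some genes of the fixed pathway lists also differed between libraries. PSMD12, a lid subunit of the proteasome on chromosome 17, had promoter densities of 1.83, 0.689 and 0.688 (WT, CFAP20-KO, CFAP20/CCNC-dKO), while PSMD4, a ubiquitin receptor of the proteasome, had 1.95, 2.97 and 2.67. SUMO2, a ubiquitin-like modifier, had 2.37, 1.75 and 0.871, and SIAH1, a RING ligase, had 4.38, 3.10 and 2.44, with WT the highest and the double knockout the lowest library for both. VHL, the substrate receptor of a CUL2 ligase, had 0.350, 0.596 and 0.830, with the double knockout the highest library. These genes were named after their values were seen, and the values come from 1 library each.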
